A study of Bos taurus with 15 samples.

Results

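The regions described here are 190 bins of 10 kb on chromosomes 1 to 29 of the bovine genome in which DNA of the mammary gland was at least 25 percentage points less methylated than DNA of the liver. They were chosen from 58610 bins that held at least 50 cytosine positions in the files of the heifers together and at least 50 in those of the calves together, and they make up 0.324% of these bins. Methylation of CpG cytosines was measured by reduced representation bisulfite sequencing, which reads DNA fragments cut at defined short motifs, in Holstein cattle whose dams spent the last 6 to 7 weeks of gestation either cooled or under heat stress. Mammary gland was taken on day 21 of the first lactation from 6 heifers, 3 cooled in utero (IUCL-H) and 3 heat stressed in utero (IUHT-H). Liver came from bull calves at birth, 5 cooled (IUCL-B) and 4 heat stressed (IUHT-B). Per the study's methods, cooled dams had shade, fans and water soakers and heat stressed dams had shade alone, and the groups of heifers were managed alike after birth. Every mammary sample was from an adult female and every liver from a newborn male, so tissue, sex, age and the kind of library cannot be told apart in any difference between mammary gland and liver. The animals carry the numbers of their labels (calves) or of the order of their records (heifers).

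Methylation of a CpG is the addition of a methyl group to a cytosine that is followed by guanine. Most CpGs outside CpG islands are methylated in adult tissues, and stretches of lower methylation in a tissue often lie at its active regulatory elements or in long partially methylated domains. A region's mean level can be intermediate because some of its positions are methylated and others not, or because copies of the DNA differ at a position, between cells or between the parental alleles.

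Heifer files held 13949097 to 20240625 methylation calls and calf files 10484911 to 38221835. A heifer had calls at 7552567 to 9753540 positions and a calf at 307023 to 5958861. IUCL-B calves 4 and 5 stood apart with 3289592 and 5958861 positions, against at most 1052206 in any other calf, and both belong to the cooled group. In the 190 bins they supplied medians of 21.5 and 39 positions, whereas the other calves supplied medians of 2 to 8. The main readings of the tissue difference are given with and without them.

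The level of a bin in a tissue was the mean over positions of the percent methylated, each position first averaged over the animals that listed it. These levels chose the members, so they are given as a description. The mammary level had a median of 57.5% over the 190 bins (19.2% to 71.0%), against 75.5% over all 58610 bins. In liver their median was 85.7% (45.5% to 98.1%), against 79.9% over all bins. The members therefore lay below the typical bin in mammary gland and above it in liver. The difference, mammary minus liver, had a median of -26.9 points (-56.8 to -25.03), while over all bins it was -3.32 points. A larger number of bins, 223 (0.380%), differed by 25 points or more the other way.

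Most members combined a high level in liver with an intermediate one in mammary gland. In liver 136 of the 190 bins were at 80% or above, 42 were between 60% and 80%, and the other 12 lay between 40% and 60%. In mammary gland 75 were between 60% and 80%, 88 between 40% and 60%, 25 between 20% and 40% and 2 under 20%. At the cut-off, the 3 members just inside were chr8:108370000-108379999 at -25.08 points, chr19:17410000-17419999 at -25.04 and chr22:13650000-13659999 at -25.03. The 3 bins just outside were chr25:36180000-36189999 at -24.997, chr10:36090000-36099999 at -24.996 and chr18:61930000-61939999 at -24.98. Coordinates are those of the deposited files, whose assembly is given as UMD3.1 in the submitters' processing notes and as UMD3.1.1 in the study's methods. No annotation of genes on either was used here, so the bins are named by position only.

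**Figure D1:**
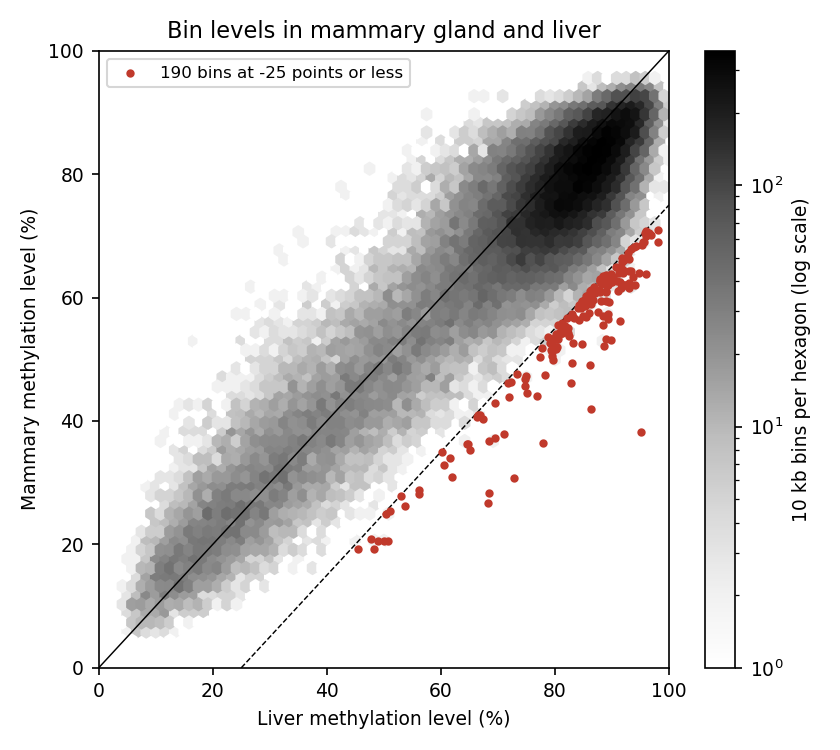
Methylation level of a 10 kb bin in liver (horizontal axis, %) and in mammary gland (vertical axis, %), with the 58610 bins as grey hexagons shaded by their number on a log scale and the 190 members as red points. The solid line marks equal levels and the dashed line a mammary level 25 points lower. Members gather at liver levels of 80% or above (136 of 190), and few lie far below the dashed line.

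The members were then read in each animal, as the mean percent over the positions of that animal where it had at least 5 positions and more than 10 calls in the bin. Medians over the 190 bins were 62.3%, 60.04% and 56.9% in IUCL-H heifers 1 to 3 and 55.9%, 60.1% and 57.7% in IUHT-H heifers 1 to 3. Over all bins the same heifers had medians of 75.4% to 77.5%. Calf medians over the members they covered were 82.6%, 84.8%, 83.3%, 86.8% and 85.0% in IUCL-B calves 1 to 5, and 90.0%, 88.9%, 88.8% and 87.1% in IUHT-B calves 2 to 5. Every heifer median was below every calf median.

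**Figure D2:**
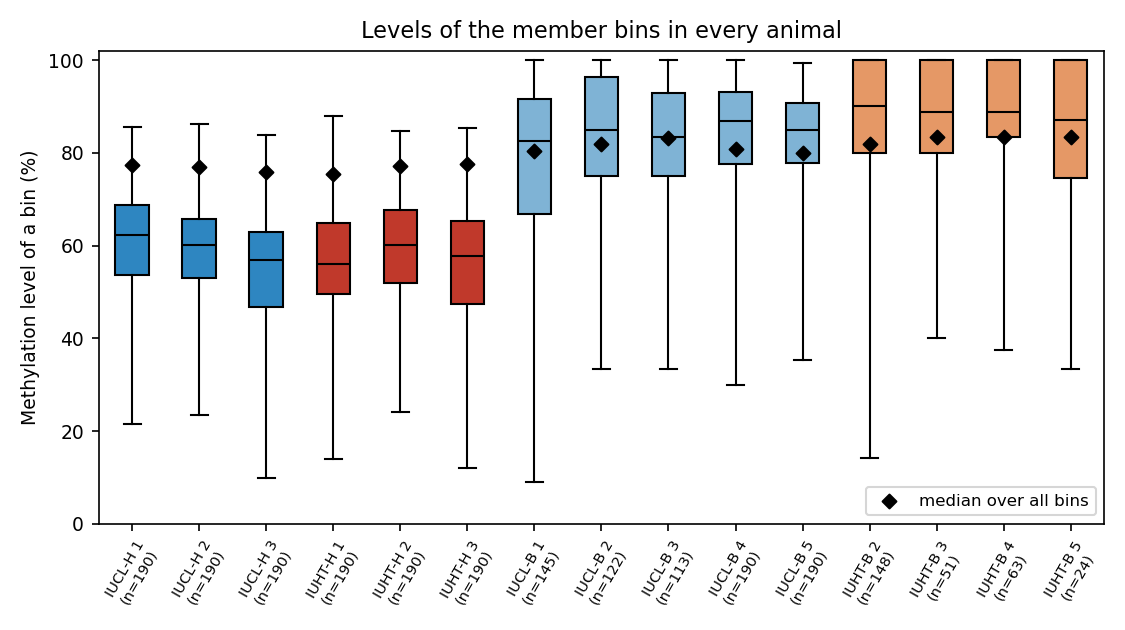
Methylation level (%) of the member bins in each of the 15 animals, with the number of members measured in that animal under its name. Boxes span the quartiles with the median as a line, whiskers reach the lowest and highest bin, and diamonds mark the animal's median over all bins. Heifer boxes centre on 55.9% to 62.3%, below their diamonds, and calf boxes on 82.6% to 90.0%, above theirs.

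Coverage of single calves limited how far animals could be compared bin by bin. All 6 heifers were measured in every member, but only 24 members were measured in IUHT-B calf 5, 51 in IUHT-B calf 3 and 63 in IUHT-B calf 4. At least 5 calves were measured in 136 members (43 with 5, 41 with 6, 23 with 7, 20 with 8 and 9 with all 9). Every measured heifer lay below every measured calf in 105 of the 190 members (55.3%). Over all bins the share was 4.71%, and since the members were selected on this contrast nothing is read from the gap. In the 9 members with all 15 animals, 5 had no overlap, against 4.58% of the bins with all 15. All 6 heifers were below the liver level in 185 members (29.5% of all bins), and every measured calf was above the mammary level in 161 (18.5% of all bins). These counts too belong to the contrast that chose the members.

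The lower mammary level was also read heifer by heifer. The levels of these 6 heifers chose the members, so the values describe that choice. With any 1 heifer left out, all 190 members stayed lower in mammary gland, but fewer met the cut-off. These were 130 without IUCL-H heifer 3, 138 without IUHT-H heifer 3 and 151 to 165 without each other heifer. The median of heifer minus liver level over the members was -22.0, -23.3 and -27.8 points in IUCL-H heifers 1 to 3 and -27.2, -24.3 and -26.6 points in IUHT-H heifers 1 to 3 (SD 2.37 over the 6 heifers). IUCL-H heifer 3 was the lowest of the 6 in 49 members, IUHT-H heifer 3 in 47 and IUHT-H heifer 1 in 38, and the other heifers in 14 to 27. These 3 were also the most often lowest over all bins, in 21.9%, 17.5% and 22.4% of them. The median SD between heifers was 7.51 points in the members against 4.85 over all bins. The members also had fewer heifer positions (median 150 against 188) and mammary levels nearer the middle of the scale (57.5% against 75.5%), and the part of these in the SD was not tested. The SD between calves was 10.3 against 10.9 points.

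At the scale of single positions the tissues differed in the share of intermediate values. Of 8303 mammary positions in the members with at least 5 calls over the heifers, 44.9% were between 20% and 80% methylated, 38.5% were at 80% or above and 16.6% were at 20% or below. Over all bins the mammary shares were 25.9%, 65.2% and 8.91%. Of 9051 liver positions in the members, 4.56% were intermediate, 81.0% were at 80% or above and 14.4% were at 20% or below, against 5.24%, 71.6% and 23.2% over all bins. In mammary gland the members held fewer high positions and more of both lower classes than all bins did. Liver held few intermediate positions in members and elsewhere alike. The members were chosen on the levels of these positions, so their distance from all bins belongs to that choice. The libraries of the tissues differed in calls per listed position, with medians of 18.2 in liver and 3.35 in mammary gland over the members and of 18.1 and 3.91 over all bins, and the part of this in the shares was not tested.

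The lower level spread over much of a bin in many members. Within the members, 552 of 1122 windows of 1 kb (49.2%) with at least 5 positions in each tissue were lower in mammary gland by 25 points or more, against 8.73% of the windows of all bins. Of the 143 members with at least 5 such windows, 83 (58.0%) had every window below 0 and 59 held at least 1 window with a higher mammary level. In all bins with as many windows, 6.04% had every window below 0. A majority of the windows was at -25 points or less in 55 of the 143 members (38.5%), against 0.592% of such bins. Without IUCL-B calves 4 and 5, 337 windows of members could be read and 172 of them (51.0%) were at -25 points or less, against 9.38% of the windows of all bins. These windows belong to the contrast that chose the bins, and they describe how the difference is laid out inside them.

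Because the tissues listed partly different positions, the members were read again at the positions that both listed, a median of 43.5 in a member. There the median difference was -24.9 points, with 188 of the 190 members below 0, 92 at -25 points or less and 17 above -10. Without IUCL-B calves 4 and 5 it was -22.7 points over 154 members, with 149 below 0 and 69 at -25 or less. With calls pooled over animals and positions instead of averaged, the median was -24.2 points, 185 members were below 0 and 91 were at -25 or less. Both readings reached -25 points in 49 members, and in 36 of these every measured heifer also lay below every measured calf. About as many members fell short of the cut-off as reached it once the positions or the weighting changed.

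The wide libraries of IUCL-B calves 4 and 5 bore on which bins met the rule. Without them, the liver level of 185 members could be computed from the other 7 calves, all 185 were below 0 and their median was -27.9 points, with 114 at -25 or less. With liver read from those calves alone, all 190 were below 0 and the median was -27.4. Selection by the same rule without them left 6349 eligible bins and 86 members, of which 6 were among the 190. Without IUCL-B calf 5 there were 226 members of 28518 eligible bins, 39 of them among the 190. Without calf 4 there were 144 of 45305, 83 of them among the 190.

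The difference was also read in animals that took no part in a choice. When the rule was applied to the cooled animals alone (IUCL-H and IUCL-B), it gave 208 bins, 71 of which were among the 190. The heat stressed animals had at least 10 positions per tissue in 123 of the 208. In them the median difference was -17.7 points, against -26.7 in the cooled animals in which these bins were chosen. It was below 0 in 104 of 123 (84.6%) and -25 or less in 36 (29.3%). Over all bins readable in the heat stressed animals the median was -4.47 points, with 64.4% below 0 and 5.73% at -25 or less. The bins chosen in cooled animals thus stayed lower in mammary gland in most cases, by less than where they were chosen. The choice needed the coverage of IUCL-B calves 4 and 5. Without them only 2 bins met the rule in the cooled animals, too few to describe. Far fewer bins were then eligible. Those also readable in the heat stressed animals numbered 984, against 37308 with these calves.

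The largest difference was at chr15:65990000-65999999, at -56.8 points. Heifer levels there were 30.7%, 52.2% and 43.2% in IUCL-H and 43.2%, 37.04% and 31.3% in IUHT-H. The only calves measured were IUCL-B calves 4 and 5, at 100% and 96.2%, so no heat stressed calf was read in this bin. All 7 of its windows of 1 kb were at -42.9 points or less, and at the 18 positions listed in both tissues the difference was -53.6. The adjacent bin, chr15:66000000-66009999, ranked eighth at -36.7 points, with heifers at 38.4% to 69.2% and 3 calves at 87.8% to 100%.

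On chromosome 8, chr8:76160000-76169999 differed by -44.4 points. IUCL-H heifers had 56.7%, 42.5% and 34.6% and IUHT-H heifers 48.1%, 28.4% and 40.5%. IUCL-B calves 1 to 5 had 71.4%, 80%, 71.4%, 90.0% and 89.2%, and IUHT-B calf 2 had 80.6%. The groups of tissues did not overlap, and the difference was -48.03 points at shared positions and -34.2 from pooled calls. Its neighbour chr8:76170000-76179999 was a member too, at -26.4 points, but there IUCL-B calf 1 (68.2%) lay below IUCL-H heifer 1 (70.4%).

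In chr10:49860000-49869999, at -42.1 points, heifers ranged from 17.1% (IUCL-H heifer 3) to 44.9% (IUHT-H heifer 2) and 3 calves from 66.1% to 100%. In chr29:44280000-44289999, at -41.7 points, heifers ranged from 27.0% to 49.4% and 7 calves from 50.0% to 100%. IUHT-B calf 2, at 50.0% from 10 positions, nearly met IUHT-H heifer 3 at 49.4%. Neither bin overlapped between tissues. Both remained lower in mammary gland at shared positions, by -24.98 and -42.4 points.

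Other bins among the 10 with the largest difference depended on which positions were read. In chr20:41370000-41379999 the difference was -40.1 points with heifers at 25.6% to 44.9% and calves at 53.3% to 100%, but at the 35 positions listed in both tissues it was -8.14. In chr29:17940000-17949999 it was -36.6 points with heifers at 43.7% to 65.0% and calves at 66.7% to 86.7%, but -0.51 at the 85 shared positions. The heifers themselves diverged in chr2:107040000-107049999, at -37.1 points, where IUCL-H heifers had 83.2%, 82.9% and 46.5% and IUHT-H heifers 69.9%, 69.0% and 36.4%. There the higher heifers overlapped the calves, which ranged from 77.8% to 100%.

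**Figure D3:**
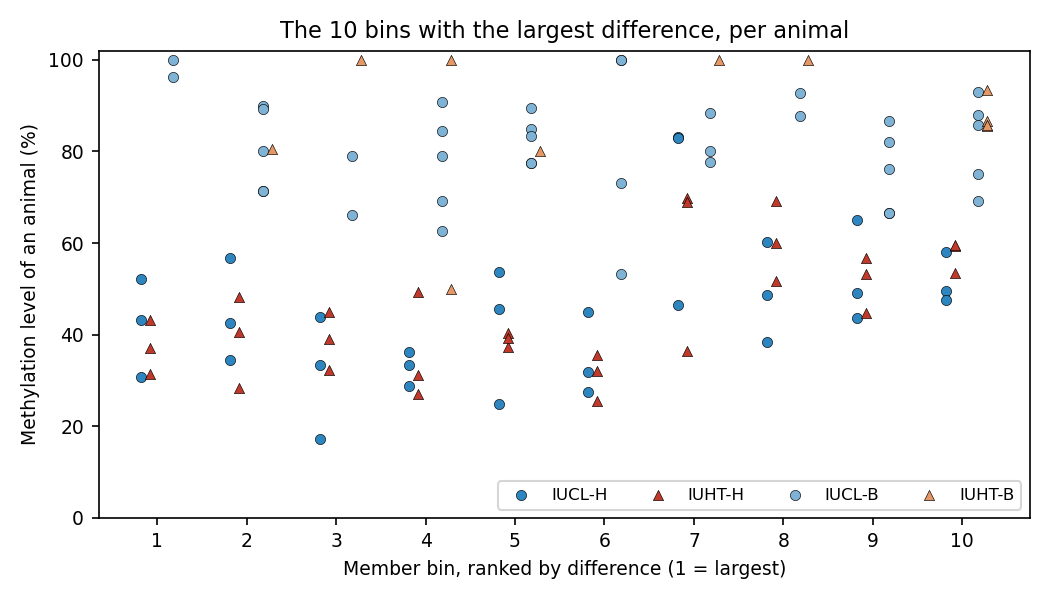
Methylation level (%) of each measured animal in the 10 members with the largest difference, ranked 1 (-56.8 points) to 10 (-36.4 points) along the horizontal axis. Heifers stand to the left and calves to the right of each rank, with circles for cooled and triangles for heat stressed animals. Heifers lie below every calf in all ranks except 7, where IUCL-H heifers reach 83.2%, and few heat stressed calves were measured.

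Most members stood alone, but members touched another member more often than eligible bins at large did. Of the 190, 177 stood alone and 13 (6.84%) touched another member, forming 6 runs, and 0.404% of all eligible bins touched a member. The share depended on where the bins began, for with bins shifted by 5 kb it was 2.63% of again 190 members. Another member lay within 100 kb of 34 members and within 1 Mb of 74. The shares of all bins at these distances were not computed, so nothing is read from these 2 counts. Joined across gaps of up to 100 kb, members formed 16 clusters of 2 or 3. The longest run, of 3 bins, was on chromosome 5, with a mean difference of -35.9 points. Of the 5 pairs, that on chromosome 15 had the lowest mean (-46.8 points over 20 kb), followed by that on chromosome 8 (-35.4 points over 20 kb). On chromosome 15 another member at chr15:66020000-66029999 brought the mean of the cluster to -40.2 points over 40 kb.

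Bins beside a member were also lower in mammary gland, though by far less than the member itself. Of 239 eligible neighbours, 191 (79.9%) were below 0, against 69.9% of the neighbours of all bins, and 33.1% were at -10 points or less, against 17.0%. The 13 members that touch another are among these neighbours and were chosen by the rule itself. Members are also among the bins read below at 10 to 100 kb, and no reading was made without them. The mean difference was -7.47 and -7.83 points 10 kb to each side of a member and between -4.23 and -7.32 points at 20 to 100 kb, while around all bins it ran from -3.50 to -3.72. Without IUCL-B calves 4 and 5 the mean at 10 kb was -9.03 and -7.84 points over 83 and 88 bins, against -4.30 and -4.28 around all bins. From a member at -28.2 points to the neighbouring bins, mammary levels rose from 54.1% to 67.7% and 66.6%, and liver levels fell from 82.3% to 75.1% and 74.5%. The member was chosen for the gap between these levels, so a smaller gap beside it belongs to the choice. Adjacent bins needed 20 positions per tissue, and centre bins 50. Around all bins mammary levels rose from 69.0% to 73.1% on each side, and liver levels from 72.0% to 76.6%.

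**Figure D4:**
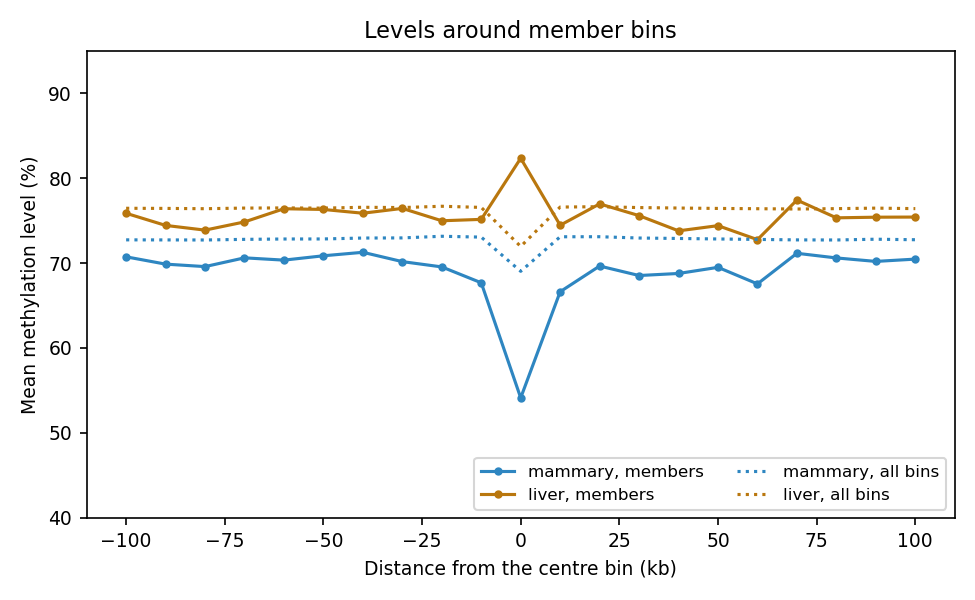
Mean methylation level (%) of mammary gland (blue) and liver (brown) in bins up to 100 kb on either side of a member (solid lines with points) and of any eligible bin (dotted lines). Levels at the centre are 54.1% and 82.3% for members, and those in adjacent bins are 66.6% to 67.7% and 74.5% to 75.1%. The centre bin was chosen for its difference. The flanking bins were not, except where they are members themselves (34 members had another within 100 kb), and flanks needed at least 20 positions per tissue.

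The longest run held 3 adjacent members at chr5:117090000-117119999, with differences of -41.5, -36.4 and -29.9 points. Its bins were densely read, with 225, 272 and 368 calf positions, the last the highest number in any member, and 522 to 703 heifer positions. Over the whole run IUCL-H heifers had 56.0%, 61.2% and 43.9% and IUHT-H heifers 52.05%, 54.2% and 51.4%, from 440 to 926 positions each. IUCL-B calves had 89.8%, 80.6%, 81.1%, 86.8% and 84.6%, and IUHT-B calves 90.9%, 80.6%, 88.5% and 86.4%, from 22 to 620 positions each. The lowest calf was well above the highest heifer, and cooled and heat stressed animals overlapped in both tissues. The difference was larger at shared positions in all 3 bins, at -46.7, -38.3 and -32.2 points.

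Inside the run 29 windows of 1 kb could be read, all 29 were lower in mammary gland and 25 were lower by 25 points or more, with a median of -37.3. In the 40 kb on either side 71 windows had a median of -5.81 points and 12 were at -25 or less. The sides differed, for the bin just before the run was at -24.6 points and the bin just after it at -2.67. Without IUCL-B calves 4 and 5, 15 windows inside had a median of -38.8 points, all below 0, and 25 windows outside one of -8.99. The mammary level of the windows inside ran from 28.9% to 70.1% and the liver level from 60.3% to 98.2%. Of the mammary positions of the run with at least 5 calls, 64.8% were intermediate, 23.4% were at 80% or above and 11.8% at 20% or below, and in liver 82.3% were at 80% or above.

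**Figure D5:**
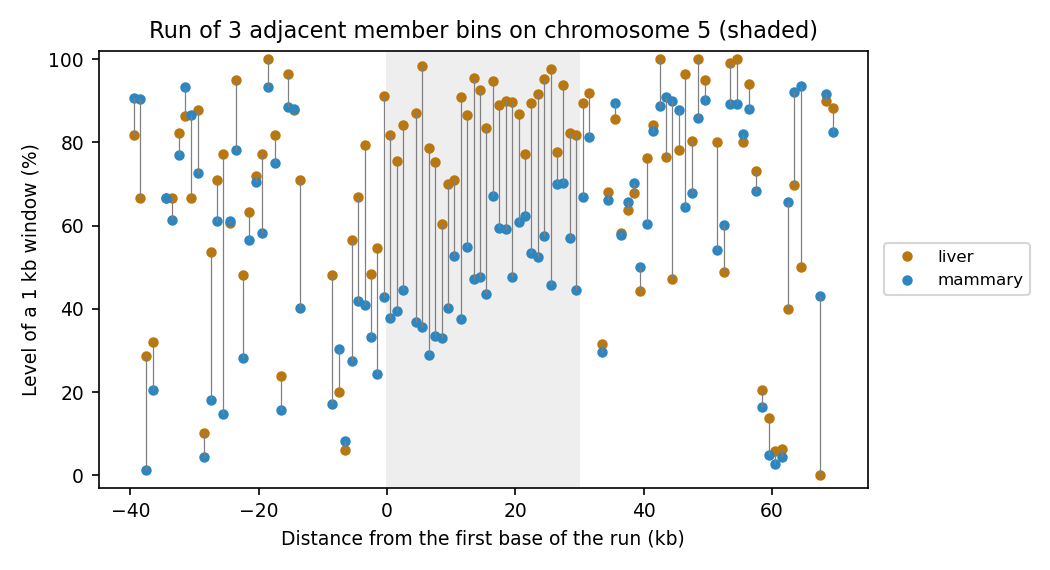
Methylation level (%) of windows of 1 kb in liver (brown) and mammary gland (blue) around the run of 3 adjacent members on chromosome 5, by distance in kb from its first base. The shaded part is the run and grey lines join the tissues of a window. Inside it all 29 windows are lower in mammary gland, with a median difference of -37.3 points, against -5.81 in the 40 kb to either side.

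The remaining runs were pairs. Chr1:83230000-83249999 had a mean difference of -29.96 points and held a bin with low levels in both tissues, at 20.5% in mammary gland and 49.0% in liver, and its other bin stood at 61.6% and 93.0%. Chr29:42830000-42849999 averaged -27.3 points with levels of 61.6% and 88.9%, and chr11:87590000-87609999 averaged -25.4 points with 67.3% and 92.8%. In the latter pair heifers ranged from 57.6% to 77.4% and the calves from 90.0% to 100%.

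Members occurred on all 29 autosomes. Chromosome 5 held 13, chromosomes 7 and 18 held 12 each, chromosome 25 held 11 and chromosomes 15 and 29 held 10 each, whereas chromosome 6 held 1. Per 1000 eligible bins the number ran from 0.810 on chromosome 6 to 5.71 on chromosome 12. Within 2 Mb of the first base of a chromosome there were 3 members (1.58%, all bins 2.65%), and within 2 Mb of its last listed position 9 (4.74%, all bins 7.65%). Positions were sparser in members than elsewhere, with medians of 150 heifer and 64.5 calf positions in a bin against 188 and 87. There were 12.9 members per 1000 bins with under 100 heifer positions and 1.44 with 300 or more, and 5.28 per 1000 bins with 50 to 74 calf positions and 1.57 with 150 or more. Bins that differed by 25 points the other way showed no such gradient over calf positions (3.34 to 4.05 per 1000). The members thus came more often from bins with few positions, and what part the sparse sampling had in their differences was not tested. At 100 or more positions in each tissue, 33 of the 190 remained, among 23667 eligible bins.

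Heat stressed and cooled animals were then compared in these bins within each tissue, a contrast that the choice did not use, to ask whether heat stress of the dam was followed by other levels in the offspring. Methylated and unmethylated calls were summed over a bin, so the levels of an animal are here the percent of all its calls. Logistic regression with an overdispersion term and an F test was fitted to all bins covered in the tissue, and a bin was called at a Benjamini-Hochberg q of 0.2 or less with at least 15 points between the group means. In mammary gland 0 of the 190 members were called, and 0 of all 58574 bins (0% higher and 0% lower in IUHT-H). At an unadjusted p under 0.05 there was 1 member, with 911 of all bins (1.56%). The smallest unadjusted p of this F test over all bins was 0.00293. With 3 heifers in a group, a dispersion of at least 1 and 58574 bins to adjust for, a call was hard to reach. The 0 calls therefore do not show that the groups had equal levels. Limma on the animals' mean percent called 0 bins as well (0%). At an unadjusted p under 0.05 it had 14 of the 190 members and 2109 of all 58574 bins. That is a larger share of the members than of all bins, and 0 passed the adjustment. Logistic regression without overdispersion called 4 members and 640 bins (1.09%).

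Levels of IUHT-H were lower than those of IUCL-H in 112 of the 190 members, a share close to the 55.3% of all bins. The median difference, IUHT-H minus IUCL-H, was -1.88 points over the members (-17.0 to 16.9) and -0.50 over all bins. Without IUCL-H heifer 1 the median over the members was 0.105 points and without IUHT-H heifer 1 it was -0.374. Its sign thus rested on IUCL-H heifer 1 and its size on both animals. The 3 heifers of IUHT-H were all below the 3 of IUCL-H in 14 members (background 4.55%) and all above in 6 (background 3.86%). A difference of 15 points or more either way was found in 5 members (background 1.21%). None of these bins passed the test.

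The smallest mammary p was at chr22:18010000-18019999, where IUCL-H heifers had 54.2%, 51.4% and 57.8% and IUHT-H heifers 44.9%, 36.7% and 30.8% from 49 to 91 calls each. The means were 54.5% ± 3.22 (SD, n = 3) and 37.5% ± 7.09 (SD, n = 3). The groups did not overlap, but the difference of -17.0 points did not pass (F test of the logistic regression fitted over all bins, unadjusted p = 0.0201, q = 1). Logistic regression without overdispersion called this bin, at q = 0.00916 over all bins, and its own dispersion was 0.836. Limma on mean percent did not call it. At chr15:66020000-66029999, the outer member of the chromosome 15 cluster, IUCL-H heifers had 56.9%, 70.4% and 67.2% and IUHT-H heifers 43.9%, 56.5% and 50.8%, with q = 1. At chr26:43360000-43369999 the means were 77.9% ± 2.23 (SD, n = 3) and 66.2% ± 7.05 (SD, n = 3), also with q = 1 in the fit over all bins. All 3 bins had lower means in IUHT-H, and the F test over 58574 bins called none of them.

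In liver only 36 of the 190 members had at least 3 calves of each group with enough positions and calls. None of the 36 was called (0 higher and 0 lower in IUHT-B), where 309 of 16599 bins (1.86%) were called higher and 212 (1.28%) lower. An unadjusted p under 0.05 was found in 3 members, against 15.5% of all bins. Limma on the animals' mean percent called 6 members and 2159 bins (13% of all), and logistic regression without overdispersion called 6 members and 4971 bins (29.9%). The counts of calves within a group differed far more than independent calls would, with a median dispersion of 48.5 in the members and 54.8 over all bins, where independent calls give a value near 1. In mammary gland these medians were 2.04 and 1.80.

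The liver level was higher in IUHT-B in 25 of the 36 members and in 9141 of all 16599 bins, and lower in 11 members and in 44.9% of all bins. The median difference was 4.54 points over the members (-39.9 to 34.4) and 1.68 over all bins. Without IUCL-B calves 4 and 5 it was 2.12 points over 27 members, 10 of them lower in IUHT-B. Over the 13793 bins still covered it was then 0.582 points. All IUHT-B calves were above all IUCL-B calves in 5 of the 36 members (background 6.11%), and the reverse held in 0 (background 1.64%). Differences of 15 points or more either way were found in 7 of the 36 (background 30.7%). The smallest p was at chr25:40840000-40849999, where IUCL-B calves 1 to 5 had 94.4%, 85.1%, 80.4%, 92.9% and 79.9% and IUHT-B calves 2, 4 and 5 had 100%, 97.02% and 100%. The groups did not overlap, and the difference of 12.5 points had q = 0.253 (logistic regression with an F test over all bins). At chr10:80750000-80759999 the 3 measured IUHT-B calves were at 100% and the 4 measured IUCL-B calves between 89.2% and 100%, with q = 0.262 in the same fit.

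At chr7:17830000-17839999 IUHT-B calves 2, 3 and 4 were at 100% and IUCL-B calves 1 to 5 at 17.3%, 73.4%, 83.1%, 70.7% and 83.7%. The means were 100% and 65.6% ± 27.6 (SD, n = 5), and the difference of 34.4 points did not pass (q = 0.286 in the fit over all bins). Without IUCL-B calf 1 the difference was 22.3 points and the bin was called, at q = 0.0788. That calf stood apart in the percent of its 225 calls only. As the mean percent over its 5 positions it had 80%, within the range of IUCL-B calves 2 to 5 (57.1% to 81.25%). On mean percent the groups had 73.7% ± 10.1 (SD, n = 5) and 100% (n = 3), and limma called the difference of 26.3 points, at q = 0.0654 over all bins. These tests differ in their model as well as in how positions are weighted, and which of these the call depended on was not tested.

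Of the 36 members tested in both tissues, 8 were lower and 8 higher in heat stressed animals in both, 17 were lower in mammary gland and higher in liver, and 3 the reverse. The same sign was found in 44.4% of them and in 49.3% of all 16597 bins tested in both. The treatment effects of the tissues differed at a q of 0.2 or less in 2 of the 36 members and in 654 of all bins (3.94%, limma with an interaction of treatment and tissue on mean percent). On the percent of calls 0 members and 10 bins (0.0603%) reached that q. At chr7:17830000-17839999, the other of the 2, the interaction was -36.2 points on mean percent (q = 0.145 by limma) and -43.7 points on the percent of calls (q = 0.921, unadjusted p = 0.0393), so its size was not smaller where the call was lost. The lower q was at chr5:111870000-111879999, where IUCL-H heifers had 52.6%, 59.2% and 37.1% of calls methylated and IUHT-H heifers 41.2%, 47.1% and 39.05%. IUCL-B calves had 97.05%, 65.6%, 98.3%, 69.4% and 82.4% and IUHT-B calves 2 to 4 had 100%, 99.7% and 100%. IUHT-H differed by -7.19 points, with overlap, and IUHT-B was higher by 17.4 points, without overlap, and neither difference was called in its own tissue (q = 1 and q = 0.370, logistic regression over all bins). The interaction of these values was -24.5 points, with q = 0.921 by limma over all bins. As mean percent over positions IUCL-H heifers had 56.8%, 58.7% and 42.9% and IUHT-H heifers 46.9%, 50.3% and 37.9%, again with overlap. IUCL-B calves had on this scale 68.75%, 64.1%, 78.9%, 65.9% and 72.7%, from 16, 13, 19, 41 and 100 positions. IUHT-B calves 2 to 4 had 100%, 99.9% and 100% from 6 positions each, so the groups were read at partly different positions. On that scale IUHT-H was lower, at -7.74 points, and IUHT-B higher by 29.9 points, and the interaction was -37.6 points with q = 0.0407 by limma. Without IUCL-B calves 4 and 5 it was -37.1 points, with q = 0.0292. The unadjusted p of limma was larger there, at 0.000406 against 9.81e-05. The q was lower in a fit where 2305 bins in place of 654 reached a q of 0.2 or less.

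Single cytosines were compared by logistic regression with a minimum of more than 10 reads, both named in the study's methods. Those methods do not state whether an overdispersion term was used or in how many animals the minimum had to be met. Here no such term was fitted, and all animals of the tissue had to meet the minimum. None of the 18486 mammary and none of the 900 liver sites that met this minimum lay in a member. The differentially methylated cytosines found here (285 and 298 of them, or 0.427% higher and 1.11% lower in mammary gland and 14.2% higher and 18.9% lower in liver) could therefore not include these bins. The study reported larger numbers of such cytosines in both tissues, and its list was not compared with the members here. With the minimum met in at least 3 calves of each group, 3377 liver sites were tested, again 0 of them in a member. With more than 5 reads 3 mammary sites lay in members and 0 of the 3 were called. Single cytosines of the members could therefore not be compared under these requirements.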

How the data were processed

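Each animal gave 1 library and 1 file. Per the labels, DNA was cut with MspI and TaqαI, converted with bisulfite and read in 50 bp single ends. The submitters' processing notes name FastQC, Trim Galore 0.4.4, Bismark 0.17.0 and the build UMD3.1. The study's methods name UMD3.1.1. The authors deposited, per cytosine position and strand, counts of methylated and unmethylated calls and the percent methylated, with no coverage minimum applied. Percent equalled the value from the counts.

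Bins were counted from position 0 in steps of 10000. Members and lists were chosen with earlier results of these data known. Named bins are the 10 lowest differences, 3 bins on each side of the cut-off, the runs of adjacent members, and the 3 smallest treatment p-values per tissue, and the bin with the lowest interaction q was added after its values were seen. Treatment was tested on counts by logistic regression per bin with a McCullagh-Nelder dispersion (at least 1) and an F test. Mammary bins needed 5 positions and more than 10 calls in each heifer, and liver bins in at least 3 calves of each group. P-values were adjusted by Benjamini-Hochberg over all bins. Alternatives included limma 3.58.1 in R, a likelihood-ratio test, other minimums and animals left out. Tests were checked on simulated data. Python, numpy, scipy and pandas were used. Depth sets the precision, and copies made by PCR are not independent molecules. Genes and sequences of the bins were not analysed here.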

Additional observations from a re-analysis of the deposited data

Results flagged for a closer look

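Animals far from the rest of their group were sought with Dixon's ratio in 23 sets of 4 or 5 calves, formed by the named bins in which all calves of a group were measured, by the medians over the members and by the run on chromosome 5. Chance would single out about 1 in 20 sets, and 2 were found. In the middle bin of that run, chr5:117100000-117109999, IUHT-B calf 2 had 93.3%, while the other IUHT-B calves lay between 85.6% and 86.7%. In chr7:17830000-17839999, IUCL-B calf 1 had 17.3% of calls methylated, while the other IUCL-B calves lay between 70.7% and 83.7%. On the mean percent over its 5 positions the same calf had 80%, within the range of the others, so it stood apart on 1 of these scales only.

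The treatment effects of the tissues differed in chr5:111870000-111879999, where the effect in mammary gland minus that in liver was -37.6 points (limma interaction over 16597 bins, q = 0.0407, on mean percent). On the percent of calls it was -24.5 points, with q = 0.921. On mean percent 61 of all bins reached a q of 0.05 or less.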

How the results depend on the processing

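The number of members depended on every threshold, and some settings also changed the number of eligible bins. Of the main 58610 eligible bins it was 834 at a cut-off of -20 points and 38 at -30. Of the same bins it was 1671 with pooled counts and 548 with the mean of animal levels. At positions listed in both tissues it was 422 of 58607. It was 33 of 23667 with at least 100 positions, 756 of 95086 with at least 30 and 86 of 6349 without IUCL-B calves 4 and 5. With 1 animal left out it was 144 to 226. The 144 were of 45305 bins (without IUCL-B calf 4). The 226 were of 28518 without IUCL-B calf 5 and of 58607 without IUHT-H heifer 2. The median difference over the 190 members was -24.2 points with pooled counts and -28.2 to -26.3 with 1 animal left out. A value of -17.7 in held-out heat stressed animals belongs to another set. It was read in 123 of the 208 bins chosen on cooled animals, and 71 of the 208 were among the 190. The share next to another member was 2.63% when bins were shifted by 5 kb, although the number of members was again 190.

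In mammary gland, logistic regression without overdispersion called 640 bins, 4 of them members, and the other fits called 0. In liver the 521 called bins became 4971 (6 members) without overdispersion, 2159 (6) with limma, 103 (0) with at least 10 positions per calf, 3523 of 52375 (14 of 170 members, 8.24% against 6.73% of bins) with no minimum per calf, 6 (0) at q of 0.05 or less, 157 (0) without IUCL-B calves 4 and 5, and 93 to 739 with 1 calf left out. These fits tested different numbers of bins, and the main fit called 3.14% of its 16599. The lowest numbers were 93 of 8406 (1.11%) without IUHT-B calf 3 and 112 of 15846 (0.707%) without IUCL-B calf 4. Next were 220 of 15845 (1.39%) without IUCL-B calf 5, 226 of 13777 (1.64%) without IUHT-B calf 5 and 325 of 16372 (1.99%) without IUCL-B calf 3. The highest was 739 of 6681 (11.1%) without IUHT-B calf 2. With at least 10 positions per calf, 103 of 4379 were called (2.35%). Without IUCL-B calf 1 or calf 2 there was 1 member called, and without any other single calf 0. Few members could be tested in some of these fits, 11, 16 and 15 without IUHT-B calves 2, 3 and 4. Only 9 members could be tested with at least 10 positions per calf.

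IUCL-B and IUHT-B share calf numbers, but the numbers name animals. Deviations of calves with the same number were correlated at -0.021, 0.00082, -0.0070 and -0.0060 over 6048 bins, so the numbers pair no samples. With the replicate block, limma on calves 2 to 5 called 627 of 14745 bins (4.25%) and 3 of 31 members, and 1454 bins (9.86%) and 4 members with no block.

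Differentially methylated mammary cytosines numbered 285, and 0 with overdispersion (299 at an unadjusted p under 0.05), 34 at 25 points, 104 at q of 0.05 or less, 122 with more than 20 reads and 284 to 453 with 1 heifer left out, the highest without IUCL-H heifer 1. Liver gave 298, and 57 with overdispersion, 157 at 25 points, 535 with more than 5 reads, 139 with more than 20, 1300 with at least 3 calves of each group, and 301 to 489 with 1 calf left out, the highest without IUHT-B calf 5. No setting that could be run called a cytosine in a member. Named bins were members, chosen for a difference of -25 points or less, and most settings left out 1 of the same animals. An unchanged sign was therefore nearly fixed in advance. Over all 190 members, 185 were below 0 with pooled counts and 188 at positions listed in both tissues. Of 399 readings of named tissue differences under other settings none changed sign and 18 moved by more than the SD between heifers. The cause of these shifts was not tested. Where a fit left a group with 2 animals, their spread was pooled with that of the other group.

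The readings without IUCL-B calves 4 and 5 of shared positions, windows, adjacent bins, the choice on cooled animals and the interaction, and the interaction on percent of calls, were chosen after seeing the data. The interaction of treatment and tissue reached a q of 0.2 or less in 654 bins and 2 members on mean percent, in 10 bins and 0 members on percent of calls, and in 2305 bins and 6 members without IUCL-B calves 4 and 5. Without these calves the choice on cooled animals gave 2 bins in place of 208. The eligible bins readable in heat stressed animals then numbered 984 in place of 37308.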
